A study of Mus musculus with 2 samples.

Results

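Noncoding genes that start beside, or overlap, genes of the forkhead box (Fox) family were examined in a pooled list of RNA transcripts from mouse embryonic stem cells. The members were Fendrr beside Foxf1, Foxd2os beside Foxd2, Foxl2os beside Foxl2, B230323A14Rik beside Foxb1 and 1700018A04Rik beside Foxf2. They were chosen by measured values of the list itself, the positions and exon lengths of its transcripts, as the listed transcripts of either strand that overlap 5 windows of the mm9 genome by at least 1 bp: chr8:123570000-123620000 (Fendrr), chr4:114560000-114600000 (Foxd2os), chr9:98840000-98880000 (Foxl2os), chr9:69590000-69630000 (B230323A14Rik) and chr13:31690000-31730000 (1700018A04Rik). The windows held 42 of the 110003 transcripts of the list (0.0382%), and each gene was then checked by its exon structure.

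The cells were V6.5, a mouse embryonic stem cell line, cultured on irradiated mouse embryonic fibroblasts, with no treatment or genotype difference named. DNase-treated RNA was used for 1 library of polyadenylated molecules and 1 library after removal of ribosomal RNA, both strand-specific, and these 2 groups of 1 library each share the cell line and the feeder layer. For every transcript the list holds its mm9 coordinates, strand and exons, and neither a read count nor a library of origin, so depth and expression level are unknown, the groups were not compared, and no value below has an error between cultures. Structures of 0 of 12 matchable pluripotency genes and 0 of 11 matchable fibroblast genes were in the list, beside 1.73% of all matchable protein-coding genes (322 of 18581), so these markers do not show from which of the cultured cells a transcript came.

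Fox proteins are transcription factors that share the forkhead DNA-binding domain and act in the patterning of embryonic tissues. Foxf1 and Foxf2 act in mesoderm and in mesenchyme around the lung and gut, Foxd2 in mesoderm-derived tissues including the kidney, Foxl2 in the granulosa cells of the ovary, and Foxb1 in the developing diencephalon. Long noncoding RNAs often start near such genes on the other strand, and an arrangement in which the RNAs run away from each other is called divergent. Fendrr is the best known of the 5: it is required for normal development of the heart and body wall in the mouse embryo and has been reported to bind chromatin-modifying complexes.

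Each of the 5 noncoding genes was present with the exon structure of its annotated gene. Because the file holds no gene names, successive lengths (an intron, the exon after it and the next intron, called a run) were taken from each transcript of at least 3 exons and compared with GENCODE release M21 on the same chromosome and strand (GRCm38, a later build than mm9). In the windows 12 transcripts matched a member by such runs, 3 for Fendrr, 5 for Foxd2os, 1 for Foxl2os, 2 for B230323A14Rik and 1 for 1700018A04Rik, and 0 matched a member on the other strand. Of all listed transcripts with 3 or more exons, 57.4% matched an annotated gene by runs, and 0.255% did so on the other strand. A further transcript, FT322618, has 2 exons and the complete structure of an annotated isoform of 1700018A04Rik, which brings the assigned transcripts to 13. Within each window all runs of the member gave 1 and the same difference between the position in the list and in the annotation. For Foxl2os and 1700018A04Rik the runs came from 1 transcript, so an equal difference follows from the matching lengths. Matched transcripts of 1700018A04Rik outside its window were not compared in this way. The list held 63.0% of all matchable annotated noncoding genes. The 5 genes were chosen with their presence in the list known, so finding all of them is no result.

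The exon junctions that identify the genes, and that separate their isoforms, are shown from the GENCODE M21 transcript sequences of GRCm38. Each line holds the last 20 nt of 1 exon in lower case and the first 20 nt of the next in capitals, 5′ to 3′.
Fendrr-202, exons 1 and 2: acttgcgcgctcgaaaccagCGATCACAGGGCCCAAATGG
Fendrr-202, exons 2 and 3: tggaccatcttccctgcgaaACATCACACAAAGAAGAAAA
Fendrr-203, exons 2 and 3: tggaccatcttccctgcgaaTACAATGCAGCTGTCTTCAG
Foxd2os-201, exons 1 and 2: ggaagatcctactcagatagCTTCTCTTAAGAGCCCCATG
Foxd2os-202, exons 1 and 2: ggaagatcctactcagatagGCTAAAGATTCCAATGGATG
Foxd2os-202, exons 3 and 4: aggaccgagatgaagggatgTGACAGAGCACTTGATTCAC
B230323A14Rik-201, exons 1 and 2: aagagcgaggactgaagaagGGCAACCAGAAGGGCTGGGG
B230323A14Rik-202, exons 1 and 2: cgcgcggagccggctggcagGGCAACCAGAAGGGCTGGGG
1700018A04Rik-204, exons 1 and 2: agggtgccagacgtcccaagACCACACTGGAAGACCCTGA
1700018A04Rik-205, exons 1 and 2: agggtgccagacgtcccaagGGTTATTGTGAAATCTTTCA
Fendrr (at exon 2), Foxd2os and 1700018A04Rik (at exon 1) each join 1 donor to different next exons, so the lower-case letters of these lines are the same. B230323A14Rik does the reverse: its alternative first exons join the same second exon.

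Fendrr was listed with a complete long isoform and a short one at its 3′ part. The long form, on mm9 chr8:123578782-123606932 of the minus strand, has 6 exons of 59, 548, 186, 171, 1245 and 171 nt (2380 nt spliced over 28151 bp). It occurs as FT330416 and again, with identical exons, as U030335-1, and its structure is that of isoform Fendrr-202 from end to end. The short form FT31778 has 3 exons (172, 332 and 588 nt, 1092 nt in all), starts 22619 bp downstream of the long form and has the structure of Fendrr-201. U030335-2 shares the 94 bp last intron of the short form, and 920 of its 921 nt overlap it. The remaining annotated isoform, Fendrr-203, in which exon 2 joins another exon 3 and the first exon starts 78 bp further upstream, was not found as a whole.

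Foxd2os had 5 matched transcripts with 5 different structures that begin in the same first exon. All lie on the plus strand between 114581862 and 114594572 of mm9 chromosome 4, and 4 of the 5 start at the same base, with FT323627 starting 32 bp inside. After the first exon (402 nt, or 370 nt in FT323627), FT333936, FT323627 and U004660-1 splice over 2511 bp to an exon of 1705 nt, and FT312026 and U004660-2 splice over 6530 bp to the 122 nt exon. Spliced lengths ran from 817 nt (U004660-2) to 3880 nt (FT333936). FT312026, with 5 exons and 1015 nt once its 7 deposited blocks were joined across gaps under 30 bp, has the whole structure of Foxd2os-202. FT323627 has the exons and introns of Foxd2os-201 except for the 32 nt missing at its start. U004660-1 holds the 1705 nt exon of one annotated isoform together with the 116 nt exon of the other and has the whole structure of neither, and FT333936 ends in an exon of 1773 nt.

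Foxl2os was listed once as a complete transcript, U193450-1, on the minus strand of mm9 chr9:98850200-98855718. Its 8 exons (895, 31, 91, 253, 663, 123, 97 and 942 nt, 3095 nt in all) are those of Foxl2os-201. The second exon is 31 nt long and is shown in capitals with 15 nt of each neighbouring exon, since so short an exon makes the structure easy to recognise.
Foxl2os-201, exon 2 (GRCm38 chr9:98954204-98954234, minus strand): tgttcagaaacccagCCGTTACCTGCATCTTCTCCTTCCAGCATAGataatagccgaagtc
This was the member window with the most BROAD names, 3 of the 4 found in the 5 windows. BROAD63443 has the 648 bp intron of Foxl2os and lies wholly within its exons (282 of 282 nt). BROAD63442 has the 105 bp intron and the complete 97 nt exon that follows it, and then splices over 1651 bp, where U193450-1 splices over 262 bp from the same donor, to an exon beyond the annotated 3′ end. BROAD63441 overlaps U193450-1 by 77 nt and shares no intron with it. The exons of BROAD63442 and U193450-1 overlap by 217 nt in all. The 97 nt exon, which these 2 transcripts hold complete, reads as follows, all in capitals.
Foxl2os-201, exon 7 (GRCm38 chr9:98950985-98951081, minus strand): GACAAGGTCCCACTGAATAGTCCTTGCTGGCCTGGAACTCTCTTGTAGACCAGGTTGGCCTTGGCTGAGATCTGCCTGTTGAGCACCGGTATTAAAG

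B230323A14Rik had the longest span of the 5, 72106 bp on the plus strand (mm9 chr9:69606547-69678652), and was listed under U names alone. U010697-1 has 6 exons (2864 nt) and a first intron of 47629 bp, and U010697-2 starts 2406 bp further downstream, has 5 exons (1635 nt) and a first intron of 45574 bp. Both have the whole structure of an annotated isoform, B230323A14Rik-201 and B230323A14Rik-202. They share the introns of 14174 and 1701 bp and then differ again at the 3′ end, with introns of 5332 and 406 bp in the first and 5970 bp in the second.

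1700018A04Rik was listed from 2 groups of starts, 1 beside Foxf2 and 1 further downstream. Next to Foxf2, FT322618 (mm9 chr13:31706537-31717661, minus strand) has exons of 682 and 843 nt and the structure of 1700018A04Rik-205. U034660-4 starts 283 bp further downstream, uses the same first donor, splices over 32384 bp to an exon of 66 nt and ends 47638 bp from the start of FT322618. Its 4 exons match 1700018A04Rik-204 except that the last is 2000 nt, against 1998 nt in the annotation. Its 3′ end, at 31670023, is also that of U034660-3, a transcript of the downstream starts. The other 5 transcripts matched to the gene lie outside the window, on mm9 chr13:31657361-31674382, and begin 43279 or 43287 bp downstream of the start beside Foxf2; U034660-2 and FT32231 among them have the same structure of 6 exons, that of 1700018A04Rik-203. Over the whole gene 6 transcripts matched by runs, and 11 distinct introns were listed in them.

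**Figure D1:**
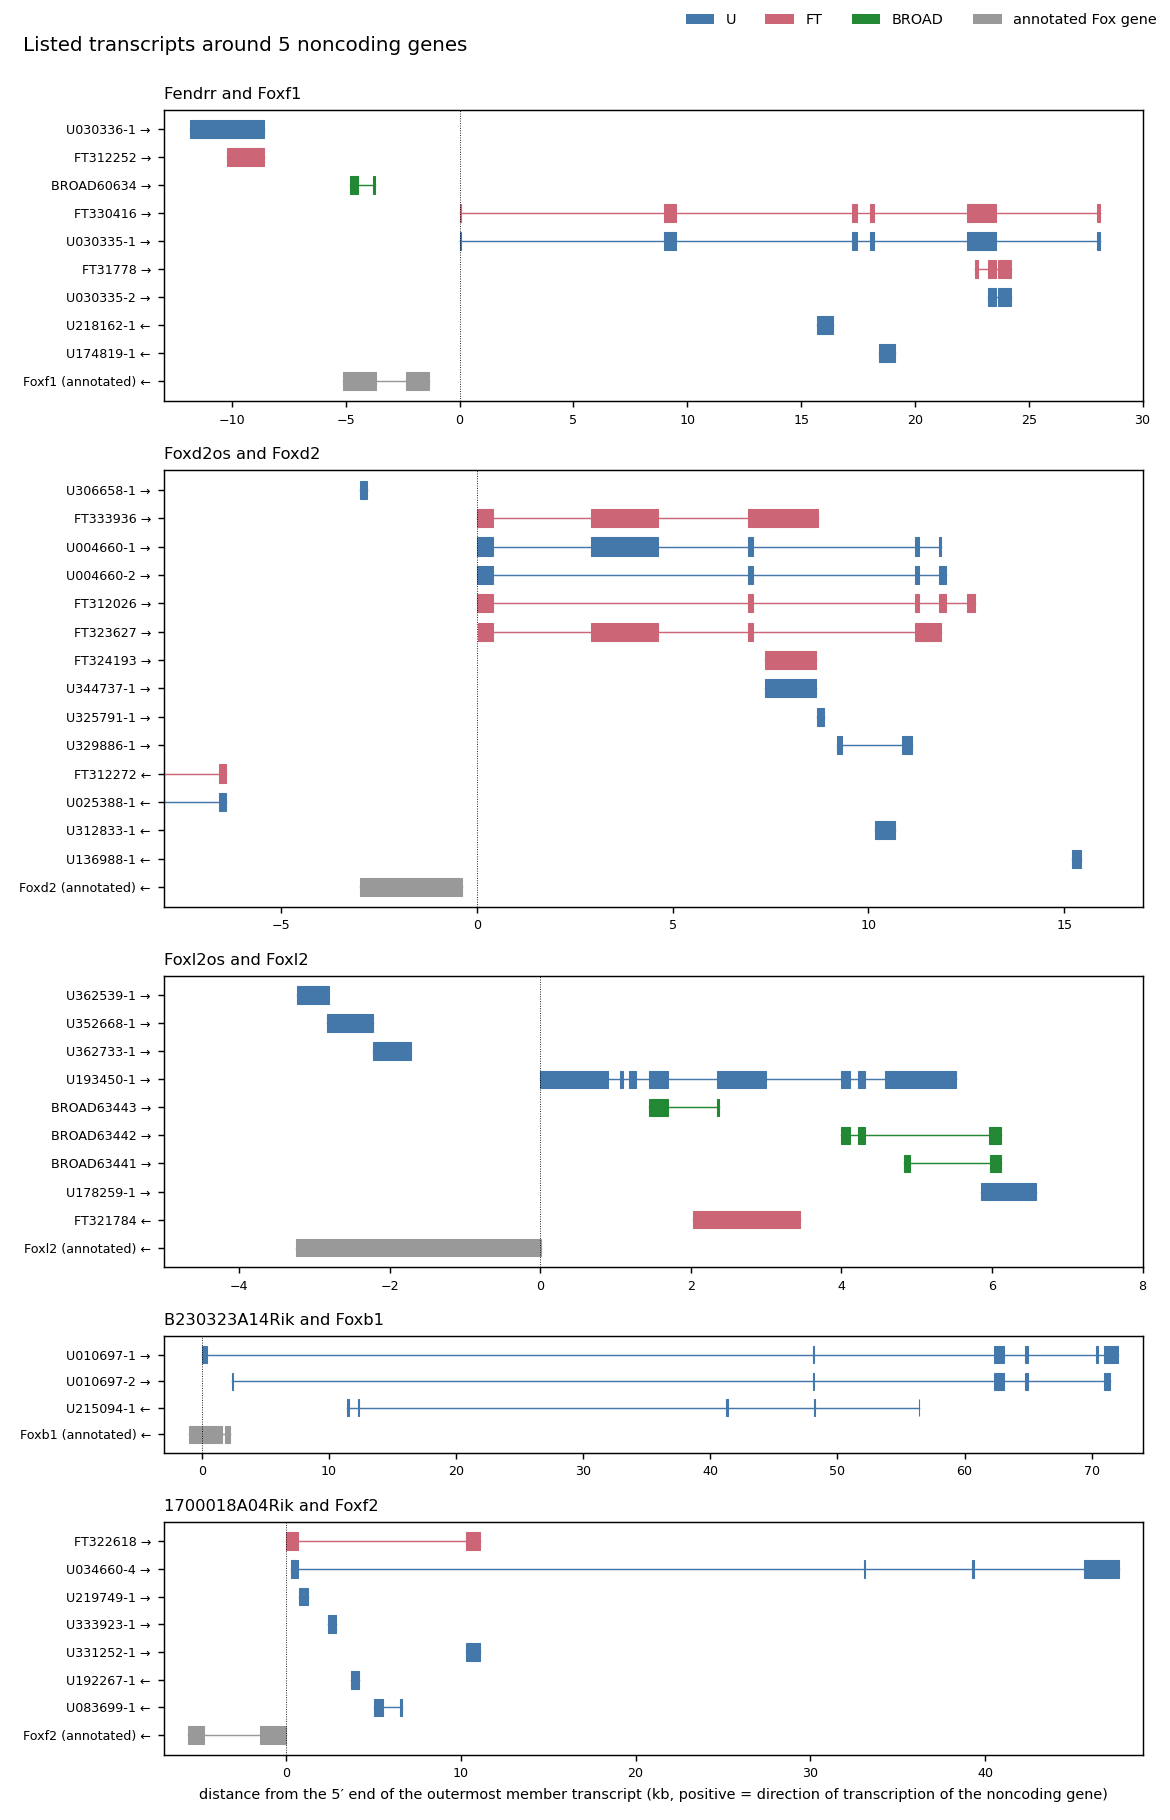
Exon maps of the 42 listed transcripts in the 5 windows, with boxes for exons, lines for introns, colours for name prefixes and arrows for the direction of transcription relative to the noncoding gene. The horizontal axis is the distance in kb from the 5′ end of the outermost member transcript with a complete annotated structure, and the grey annotated Fox gene is placed by its distance from that isoform's start in GRCm38. FT312272 and U025388-1 run on beyond the left edge, and no listed transcript on the strand of a Fox gene overlaps the grey gene in any panel.

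The Fox genes themselves were not listed at the distances where the annotation places them. Distances were compared within each build and no position was converted. In the annotation Foxf1 occupies 1354 to 5112 bp upstream of the start of Fendrr-202, Foxd2 384 to 2975 bp upstream of Foxd2os, and Foxf2 24 to 5611 bp upstream of 1700018A04Rik-205. Foxl2 begins 11 bp inside Foxl2os-201 and extends 3244 bp upstream, and Foxb1 begins 2200 bp inside B230323A14Rik-201 and extends 1030 bp upstream. The number of listed transcripts on the strand of the Fox gene in these ranges was 0 in all 5 windows. The introns of Foxf1 (1344 bp), Foxb1 (247 bp) and Foxf2 (3225 bp) were present in 0 transcripts of their windows, while Foxd2 and Foxl2 have none. Of the 44 Fox family genes 22 could be matched by runs and 0 were, beside the 1.73% of all matchable protein-coding genes. Foxf1, Foxd2, Foxl2, Foxb1 and Foxf2 are not among the 22, so this count does not concern them.

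Transcripts on the strand of the noncoding gene did reach into some of these ranges. BROAD60634, with exons of 375 and 81 nt, lies 3736 to 4830 bp upstream of Fendrr, in the range of Foxf1 and antisense to it. U306658-1, a single exon of 168 nt, ends 2813 bp and begins 2980 bp upstream of Foxd2os, at the far end of Foxd2. U362733-1, U352668-1 and U362539-1, single exons of 423 to 610 nt, lie between 1722 and 3233 bp upstream of Foxl2os, in the range of Foxl2. The list gives no level for any of them.

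In the list itself 0 of the 5 loci had a head-to-head partner, a locus on the other strand whose 5′ end faces its own within 2000 bp, and the number stayed 0 within 5000 bp. A locus here is the set of transcripts of 1 strand with overlapping spans. Over the whole list 5.16% of loci had such a partner within 2000 bp and 9.79% within 5000 bp. The list held 63.0% of matchable noncoding genes but 1.73% of matchable protein-coding genes. The members were chosen beside protein-coding genes, which are seldom listed, so the 0 is no result about these loci. The nearest facing 5′ end was 6398 bp from Foxd2os, 61852 bp from Foxl2os, 88484 bp from B230323A14Rik, 102238 bp from Fendrr and 115446 bp from 1700018A04Rik. The distances between the 5 genes and their Fox genes given next were therefore taken from the annotation.

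The nearest facing transcript of Foxd2os belonged to another noncoding gene. FT312272 and U025388-1 (mm9 chr4:114489766-114575464, minus strand) have exons of 176 and 912 nt around an intron of 84611 bp, the whole structure of 9130410C08Rik. In the annotation this gene lies on the strand of Foxd2, 3423 bp beyond its 3′ end, and its start is 6398 bp from that of Foxd2os, the same distance as in the list.

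By annotated starts, the 5 pairs ranged from 24 to 1276 bp. The distance is the smallest between any start of the Fox gene and any start of the noncoding gene that runs away from it. It was 24 bp for Foxf2 and 1700018A04Rik, 206 bp for Foxb1 and B230323A14Rik, 384 bp for Foxd2 and Foxd2os, 490 bp for Foxl2 and Foxl2os and 1276 bp for Foxf1 and Fendrr. The isoforms that set these values were not always those in the list. For Foxl2os the 490 bp come from the short isoform Foxl2os-203, which was not found, and the listed isoform begins 11 bp within Foxl2. For B230323A14Rik the divergent isoform is the listed U010697-2, while U010697-1 begins within Foxb1. For Fendrr the 1276 bp come from Fendrr-203, and the listed isoform begins 1354 bp away.

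Sequences upstream of the starts are shown for the widest and the closest pair, from the RefSeq promoter table of GRCm38.p6. Of the 5 members 3 have an entry there, as do 3 of their Fox neighbours. The first sequence is the Fendrr promoter (GRCm38 chr8:121083061-121083360, minus strand), 250 bases before the RefSeq start and 50 after it, with capitals on the forkhead motif.
Fendrr promoter: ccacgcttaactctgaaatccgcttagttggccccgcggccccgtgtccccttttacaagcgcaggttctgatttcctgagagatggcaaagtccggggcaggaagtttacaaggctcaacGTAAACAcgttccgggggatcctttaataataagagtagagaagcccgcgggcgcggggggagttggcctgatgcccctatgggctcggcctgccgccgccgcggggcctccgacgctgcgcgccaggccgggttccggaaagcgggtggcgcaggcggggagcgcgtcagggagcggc
The second is the 250 bases before the Foxf2 start (GRCm38 chr13:31625566-31625815, plus strand), with capitals on the 23 bases that lie between the annotated starts of Foxf2 and 1700018A04Rik-205. Bases 1 to 227 of it are, on the other strand, part of the first exon of 1700018A04Rik-205.
Foxf2 upstream: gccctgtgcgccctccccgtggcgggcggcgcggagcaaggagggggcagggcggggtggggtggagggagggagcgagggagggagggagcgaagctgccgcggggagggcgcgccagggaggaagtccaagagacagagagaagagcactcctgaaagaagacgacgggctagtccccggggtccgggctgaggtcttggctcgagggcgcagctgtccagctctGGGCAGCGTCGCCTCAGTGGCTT
A search on both strands for TGTTTAC, the core that forkhead proteins bind, found 1 match among the 6 entries, in the Fendrr promoter at bases 122 to 128, where it is written as its reverse complement GTAAACA. Of all 32851 promoter entries of 300 bases, 3.65% hold this motif. TATAAA was found in 1 of the 6, the RefSeq entry of 1700018A04Rik, which belongs to the start distant from Foxf2, and in 13.6% of all entries. These are matches of letters and do not show binding.

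Of the 6 entries 5 start beside the paired gene, and these 5 lay above the median of all entries in CG dinucleotides. The Fendrr promoter holds 31 CG dinucleotides in 300 bases. Its ratio of observed to expected CG dinucleotides was at percentile 93.9 of all entries, whose median was 0.38. The ratio was 0.75 for Foxl2os, 0.71 for Foxl2, 0.76 for Foxd2 and 0.79 for Foxf2. At the distant RefSeq start of 1700018A04Rik it was 0.33, with 4 CG dinucleotides and a GC content of 40.3%, against 71.3% for Foxf2. The Foxl2os and Foxl2 entries overlap, so they are not independent values.

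Transcripts assigned to the members were long and spliced, and most of the others in the windows were short and unspliced. The 13 assigned transcripts had a median length of 2380 nt, from 817 to 3880 nt, and each had at least 2 exons. The other 29 had a median length of 557 nt, beside 513 nt over the whole list, and 19 of them were single exons. In all, 23 of the 42 window transcripts (54.8%) had more than 1 exon, beside 29.9% of the whole list. Among the 29 not assigned to a member, 10 had more than 1 exon. The windows were placed on genes known to be listed with spliced structures, so the higher share in the windows is no result. Matching by runs requires 3 exons, so the difference between assigned and other transcripts in exon number follows from the rule. The difference in length is not independent of that rule and is a description only.

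Names in the list begin with 1 of 4 prefixes, and the sources used here do not explain them. The windows held 28 U names (66.7%, beside 79.2% of the whole list), 10 FT (23.8%, beside 10.7%), 4 BROAD (9.52%, beside 7.0%) and 0 WHITEHEAD (beside 3.05%), and the assigned transcripts were 7 U and 6 FT. No member was matched by a BROAD or WHITEHEAD transcript, as was true of most matched noncoding genes, of which 5.10% were matched by such names. Foxl2os and B230323A14Rik were matched by U names alone, beside 37.0% of matched noncoding genes. Of 41 distinct introns in the windows, 31 have the length of an annotated intron of the member and 14 were listed under more than 1 prefix. The 2 of these that included BROAD names were both in Foxl2os.

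**Figure D2:**
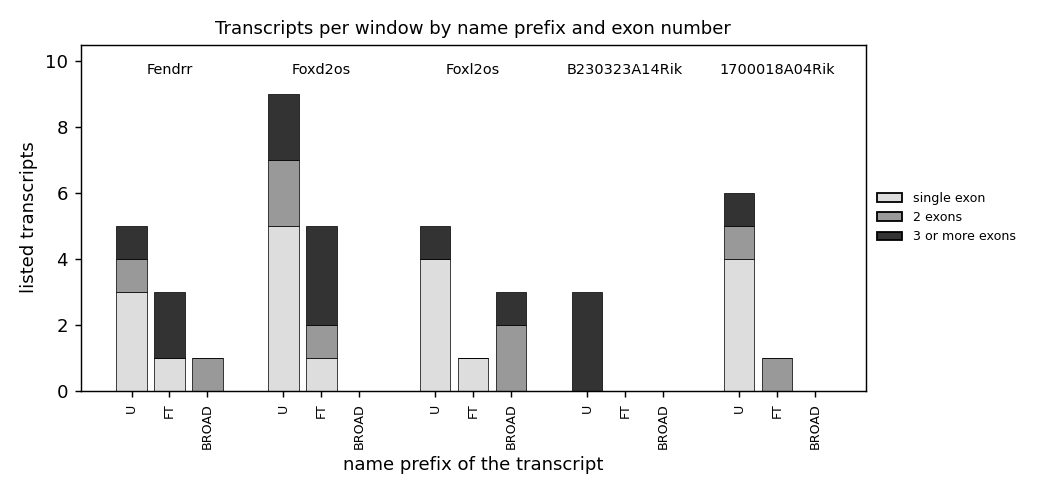
Number of listed transcripts in each window (vertical axis) by name prefix (horizontal axis), with shading for exon number. U names reach 9 in the Foxd2os window, all 3 transcripts in the B230323A14Rik window are U names with 3 or more exons, and BROAD names occur in the Fendrr and Foxl2os windows.

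Of the 13 assigned transcripts, 8 had every exon and intron length of an annotated isoform of the member, outer ends included. FT322618 among them was assigned for that reason, and of the 12 matched by runs 7 were complete, beside 36.4% of all transcripts matched by runs. Assignment itself uses the annotated lengths, so these shares describe the members and are no test. In the whole list, matched or not, complete structures made up 18.0% of multi-exon U transcripts and 50.9% of multi-exon FT transcripts, and for 0 of 7697 BROAD and 0 of 3352 WHITEHEAD transcripts (17.1% of all multi-exon transcripts). Of the 15 annotated isoforms of the 5 genes, 9 were found complete, 7 of them within the windows. Each of the 5 genes had at least 1 complete isoform, beside 63.2% of matched noncoding genes. For Foxd2os this rests on FT312026 alone, which has 5 exons only after its 7 deposited blocks were joined. In the blocks as deposited it does not have the annotated structure. Whether such structures were assembled from reads of these cells or taken over from an annotation was not tested.

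Beside the 3293 matched noncoding genes of the list, the 5 were alike in exon number and transcript length and spread widely in span. The transcript with most exons had 5 in Foxd2os, 6 in Fendrr, B230323A14Rik and 1700018A04Rik and 8 in Foxl2os, all above the median of 4 (percentiles 79.7 to 96.9). The longest matched transcript measured 2380 nt in Fendrr, 2571 nt in 1700018A04Rik, 2864 nt in B230323A14Rik, 3095 nt in Foxl2os and 3880 nt in Foxd2os, all above the median of 1120 nt (percentiles 81.9 to 96.9). The span ran from 5519 bp in Foxl2os (percentile 22.5) through 12711 bp in Foxd2os and 28151 bp in Fendrr to 60018 bp in 1700018A04Rik and 72106 bp in B230323A14Rik (percentile 91.2), around a median of 13149 bp. The longest intron was shortest and longest in the same genes, 984 bp in Foxl2os (percentile 7.49) and 47629 bp in B230323A14Rik (percentile 90.5). These percentiles are a description, since the genes were chosen with their structures known.

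**Figure D3:**
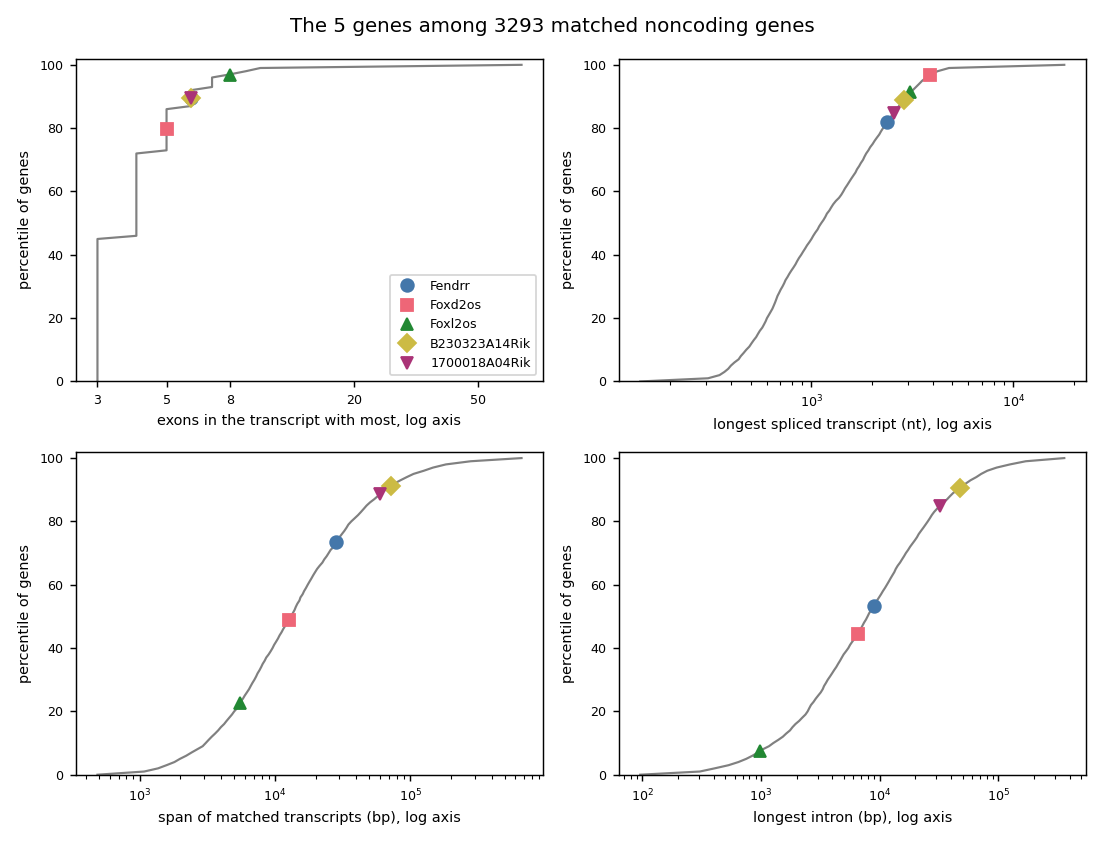
Percentile of genes (vertical axes) against exon number, longest spliced transcript in nt, span in bp and longest intron in bp (horizontal log axes), with the 3293 matched noncoding genes as the grey curve and the 5 genes as symbols. All 5 lie in the upper part for exon number and length, and Foxl2os lies low for span and longest intron, at 5519 bp and 984 bp. In the exon panel the symbols of Fendrr and 1700018A04Rik lie at the same point as B230323A14Rik.

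Several unassigned transcripts lay on the strand opposite a member. U215094-1, in the B230323A14Rik window, has 5 exons (37, 128, 119, 127 and 146 nt, 557 nt in all) on the minus strand of mm9 chr9:69618003-69662975 and matched no annotated gene by runs. It lies within the span of B230323A14Rik, and 22 nt of it overlap an exon of U010697-1 and U010697-2. In the Foxl2os window FT321784, a plus-strand transcript of 1422 nt, covers the complete exon 5 of Foxl2os (663 nt). U174819-1 and U218162-1 (694 and 673 nt) lie in introns of Fendrr on the other strand. U083699-1, in the first introns of 1700018A04Rik, shares its first exon of 111 nt and its intron of 973 bp with Gm11378 and has a last exon of 484 nt against 118 nt in the annotation. Its start is 6624 bp from that of FT322618, and the annotated starts of Gm11378 and 1700018A04Rik-205 are also 6624 bp apart.

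Other transcripts followed the strand of a member within its span. FT324193 and U344737-1, identical single exons of 1290 nt, lie wholly inside the last exon of FT333936 in the Foxd2os window. U331252-1 has the same 843 nt as the last exon of FT322618. U329886-1 has 2 exons in an intron of Foxd2os and overlaps none of its exons. U219749-1 (475 nt) and U333923-1 (471 nt) lie in the first introns of 1700018A04Rik.

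Beyond the 5 pairs, the Fox family held 2 further genes with a divergent noncoding gene found in the list. Among the 44 Fox genes 9 have an annotated divergent noncoding gene within 2000 bp, which could be matched for 8 and was found for 7 (15.9%). Without the 5 pairs chosen here the count was 2 of 39 (5.13%, Wilson 95% interval 1.42 to 16.9%, counting error only). Among the 21907 other protein-coding genes the share was 2.63%. The 5 pairs left out were chosen with their presence in the list known, which lowers the remaining count. These shares are therefore a description, and no comparison of the family with the background was tested. Without the 5 pairs the count was also 2 of 39 within 1000 bp (background 2.38%) and within 5000 bp (background 3.23%), and with only the outermost start of each gene it was 1 of 39 (2.56%, interval 0.454 to 13.2%, background 1.31%). The 2 were Foxe1, which acts in thyroid and palate development, with Gm12446 at 178 bp, and Foxn3, a transcriptional repressor, with Gm26839 at 214 bp. Gm12446 was matched by 2 U transcripts with up to 4 exons (mm9 chr4:46334045-46358387). In the annotation it also overlaps Foxe1, and no isoform of it was found complete. The 178 bp is therefore an annotated distance and may not be that of the listed transcripts. Gm26839 was matched by 3 transcripts with FT and U names and up to 4 exons (mm9 chr12:100802006-100858248). Foxn3 is also overlapped on the other strand by 3300002A11Rik, matched by 2 U transcripts. For Foxd3, a regulator of neural crest, Gm12688 at 1316 bp has too few exons for a match.

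**Figure D4:**
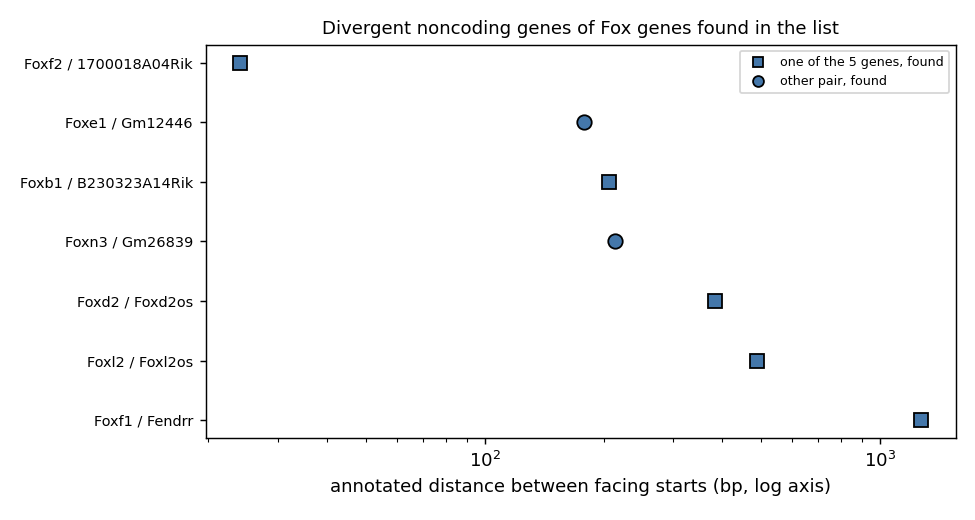
Annotated distance between facing starts in bp (log axis) for the 7 Fox genes whose divergent noncoding gene within 2000 bp was found in the list (rows). Squares are the 5 pairs examined here and circles the other 2, with distances from 24 bp for Foxf2 to 1276 bp for Foxf1.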

How the data were processed

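RNA of V6.5 cells was sequenced as 1 polyadenylated and 1 ribosomal-depleted library. The submitters' processing notes name TopHat and mm9; the sources used here do not give how transcripts were assembled or combined. What was deposited is 1 BED list with 12 columns for the whole series, called an initial pool per the file headers. Its score column, whole numbers deposited by the authors on a different scale for each name prefix, served only 1 alternative selection. Block counts, sizes and positions were read as deposited, and exon numbers and lengths were taken after the joining described next.

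Blocks separated by under 30 bp were joined into exons. Matching to GENCODE M21 used transcripts of 3 or more exons and runs of intron, exon and intron lengths occurring in a single gene. Positions were not converted between builds. Code ran in Python 3.11.15 and numpy 2.4.6, with Wilson intervals from scipy 1.17.1, and the match was tested on simulated data. The members and lists were chosen with earlier results of these data known, so no test was made. Genes named are the members, their Fox neighbours, and other Fox genes with a matched noncoding neighbour (start within 2000 bp on the other strand, or overlap); Foxd3, 9130410C08Rik and Gm11378 were named after their values were seen.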

Additional observations from a re-analysis of the deposited data

How the results depend on the processing

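Of the 42 window transcripts, 36 lay wholly inside a window and 28 had U names. Without U names 14 were left, and a score above 0 left the same number, 14, since every U name has a score of 0. Both selections, and the limit to transcripts wholly inside, left 0 of 3 in the B230323A14Rik window. Joining gaps under 50 bp changed no exon number in the windows. Using blocks as deposited changed it in 4 transcripts, giving 24 multi-exon transcripts against 23. The 4 were FT312026, FT312272, FT321784 and FT333936. Merging where exons overlap gave 21 loci against 18. The 12 matches by runs became 16 with any single intron length, 12 with lengths within 2 bp, 0 on the other strand (the control) and, in an alternative chosen after seeing the data, 13 with complete structures. The 7 Fox genes with a divergent noncoding gene in the list became 6 within 1000 bp, 7 within 5000 bp and 4 with 1 outermost start per gene, where fewer starts are compared. No paired analysis was possible because each group has 1 library and no value per library was used. The list gives no depth, so a transcript that is missing from it cannot be called absent from the cells.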
